A study of Mus musculus with 19 samples.

Results

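Cells with transcripts of cartilage matrix genes were examined at the site of an Achilles tenotomy in a mouse model of heterotopic ossification (HO), the formation of bone in soft tissue after trauma. The members were selected on measured UMI counts: a kept cell had to hold at least 2 UMIs of Col2a1, a UMI of at least 2 of the 6 partner genes Acan, Col9a1, Col9a2, Col9a3, Col11a1 and Matn3, and at most 1 UMI of Ptprc, the pan-leukocyte gene CD45. A UMI is a tag that counts 1 captured transcript. This gave 471 members among 39541 kept cells (1.19%) of 19 droplet libraries, and 2 of the 19 libraries held none.

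The model joins a dorsal scald burn over 30% of the body surface with a transection of the Achilles tendon, in young adult male mice. Tissue of the tenotomy site gave 4 libraries at day 0, 3 at day 3, 4 at day 7 and 4 at day 21. A further 4 libraries came from mice given p7N3, a CD47-activating peptide. The dose was 10 mg/kg into the peritoneum daily for 3 days before and 3 days after the injury. Replicates 1 to 3 of p7N3 were harvested at day 7, and its replicate 4 carries no harvest day. The paper compares p7N3 with PBS, whereas the titles of the day 7 libraries name no vehicle. The labels of the 15 libraries numbered 1 to 3 name C57 and LysmCre/Tgfb1fx/fx mice (Tgfb1 lost where the myeloid LysM-Cre is active) without saying which library is which, and those numbered 4 name neither, so that genotype cannot be told apart from replicate here. The kept cells of a library held 3019467 to 39870492 UMIs. The day 0 labels carry the burn as well, although the study treats day 0 as the time before injury.

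HO of this kind proceeds through cartilage, which is later replaced by bone. Chondrocytes lay down type II collagen (Col2a1) with the minor collagens IX and XI and the proteoglycan aggrecan (Acan), under the transcription factor SOX9. Tendon cells are known instead for type I collagen, tenomodulin (Tnmd) and scleraxis (Scx), and the fibrocartilage of tendons near bone holds cells that express both sets. On the mouse GRCm38 build (mm10), Col2a1 (ENSMUSG00000022483) is annotated at chr15:97975602-98004695 on the minus strand and Acan (ENSMUSG00000030607) at chr7:79053483-79115099 on the plus strand. Scx lies at chr15:76457452-76459458 and Tnmd at chrX:133850980-133865577, both on the plus strand, and the UMIs are counted over whole genes.

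Members were few before day 21. The day 0 libraries held 3, 2, 1 and 0 members, or 0.299%, 0.350%, 0.0900% and 0% of kept cells. A count of 0 in the 876 cells of replicate 4 still allows up to 0.342%. The day 3 libraries held 1, 1 and 0 members, and the last library allows up to 0.177% by the same limit (Wilson 0.227%). The day 7 libraries held 4, 69, 11 and 6 members, which is 0.123%, 1.93%, 0.300% and 0.207%, so that replicate 2 alone gave 76.7% of the day 7 members. The day 21 libraries held 46, 70, 57 and 180 members, or 2.99%, 7.72%, 6.03% and 9.20%. All 4 day 21 shares lay above every share of the other groups, and day 21 gave 353 (74.9%) of all members. The 4 p7N3 libraries held 4, 7, 6 and 3 members and lay between 0.119% and 0.236%.

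**Figure D1:**
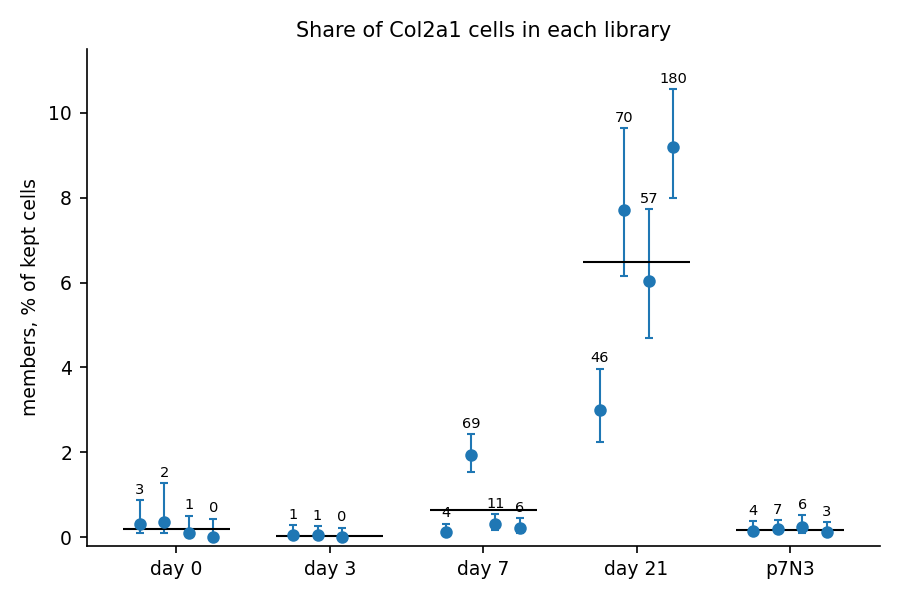
Members as a percentage of kept cells (y axis) in each of the 19 libraries, by group in the order of replicates 1 to 4. Points are libraries with their 95% Wilson interval and number of members, black lines are group means, and the day 21 libraries (2.99% to 9.20%) sit above all others.

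The mean share was 0.185% ± 0.167 (SD, n = 4) at day 0, 0.0325% ± 0.0283 (n = 3) at day 3, 0.639% ± 0.862 (n = 4) at day 7, 6.49% ± 2.66 (n = 4) at day 21 and 0.174% ± 0.0522 (n = 4) with p7N3. The share at day 21 was 6.30 percentage points above that of day 0 and 5.85 above that of day 7, each with an exact two-sided permutation p of 0.0286, the smallest that 4 against 4 libraries allow. Adjusted over the 5 comparisons of shares, this p was 0.0714 in both, so neither comparison passed 0.05, although the libraries did not overlap. Day 7 differed from day 0 by 0.455 points (exact permutation p = 0.429, adjusted 0.429) and day 3 from day 0 by -0.152 points (p = 0.286, adjusted 0.357), and those groups overlapped. The p7N3 libraries differed from day 7 by -0.466 points (exact permutation p = 0.286, adjusted 0.357). Without day 7 replicate 2 that difference was -0.0361 points, and the one of day 7 from day 0 was 0.0249 points. Shares are of all cells recovered by digestion, so a change in other cells moves them too, and the Wilson intervals cover counting error only.

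Depth differed between groups. The median of kept cells was 3414 to 4693 UMIs in the day 0 libraries and 6534 to 12406 UMIs in all others. With each cell thinned to 1500 UMIs the rule was relaxed to at least 1 UMI of Col2a1 and at least 1 partner gene, so that cells outside the members could enter. This left out 85, 37, 129 and 47 shallower cells of the day 0 libraries and none elsewhere. Cells meeting the relaxed rule took 1.17%, 2.87%, 3.17% and 4.50% of cells at day 21 and 0.123%, 1.01%, 0.136% and 0.0689% at day 7. At day 0 they took 0.327%, 0%, 0.102% and 0.241%. Day 21 lay above every library of day 7 and day 0, and its mean was 2.59 points above that of day 7 (exact permutation p = 0.0286, adjusted 0.0714).

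Other tendon-gene cells were also more frequent at day 21. For comparison, a tenocyte gate was set: cells that were not members, with a UMI of Tnmd and of at least 2 of Scx, Mkx, Fmod, Thbs4 and Kera, and at most 1 of Ptprc. It took 1.80% ± 0.731 of kept cells at day 0, 1.01% ± 0.811 at day 3, 11.2% ± 4.77 at day 7, 23.6% ± 5.94 at day 21 and 7.61% ± 1.45 with p7N3. Members made up 21.3% ± 6.65 of members and tenocyte gate together at day 21 (11.7% to 26.6%) and 4.15% ± 3.93 at day 7 (2.03% to 10.0%), without overlap. At day 0 this share was 10.7% ± 11.3, from few cells. On that denominator the difference of day 21 from day 7 was 17.2 points (exact permutation p = 0.0286, adjusted 0.143). Day 21 differed from day 0 by 10.7 points there, and those 2 groups overlapped (exact permutation p = 0.229, adjusted 0.429).

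The markers of the label were present in unequal measure. Every member had Col2a1 by the rule, 94.7% had a UMI of Acan, 55.4% of Matn3 and 41.6% of Col9a1, and 135 members (28.7%) had all 4 of these chondrocyte markers. Col11a1 was found in 99.6% of members, Col9a2 in 45.2% and Col9a3 in 43.7%. For 106 members (22.5%) Acan and Col11a1 were the only partner genes. Sox9, which the rule did not use, was found in 361 members (76.6%), against 52.9% of the tenocyte gate and 3.36% of the 8912 cells with at least 2 UMIs of Ptprc. The median depth was 21190 UMIs in members, 17994 in the tenocyte gate and 7428.5 in the Ptprc cells, which bears on each such share.

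The tendon genes Scx and Tnmd and the type I collagen gene Col1a1 were each found in most members. A UMI of Scx or Tnmd was found in 445 members (94.5%) and both in 328 (69.6%), against 7.08% and 0.583% of the Ptprc cells. Both were found in 67.4% of the tenocyte gate, where Tnmd is required, so they do not set members apart from it. Col1a1, the main collagen of tendon and bone, was found in all 471, down to 1 UMI in a cell of day 21 replicate 4. Whether such low counts came from RNA of other cells was not tested. Since most members lacked at least 1 of the 4 chondrocyte markers, the cells are named here by their rule, as Col2a1 cells.

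Col2a1 itself split the members unevenly. The number of its UMIs ran from 2 to 2566 per member, 127 members (27.0%) had exactly 2 and 70 exactly 3. A level of 20 UMIs was set after the values were seen. Above it stood 80 members (17.0%) with 21 to 2566 Col2a1 UMIs and a median of 209, which held 95.0% of all Col2a1 UMIs of members, and they are called Col2a1-rich below. The other 391 members (83.0%) had a median of 3. All 4 chondrocyte markers were found in 86.3% of Col2a1-rich members and 16.9% of the others, whereas Scx and Tnmd together were found in 45.0% and 74.7%. The median depth was 18581 UMIs in Col2a1-rich members and 22035 in the others. By library, the Col2a1-rich members numbered 15 in day 7 replicate 2, and 6, 10, 15 and 31 in the day 21 libraries. A further 3 came from day 3 replicate 2 (1 cell) and p7N3 replicates 2 and 3 (1 cell each). None came from day 0 or from the other day 7 libraries. As a share of kept cells, members with at least 20 Col2a1 UMIs averaged 1.17% at day 21 and 0.105% at day 7. The libraries of these 2 groups overlapped (exact permutation p = 0.0571, adjusted 0.143).

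**Figure D2:**
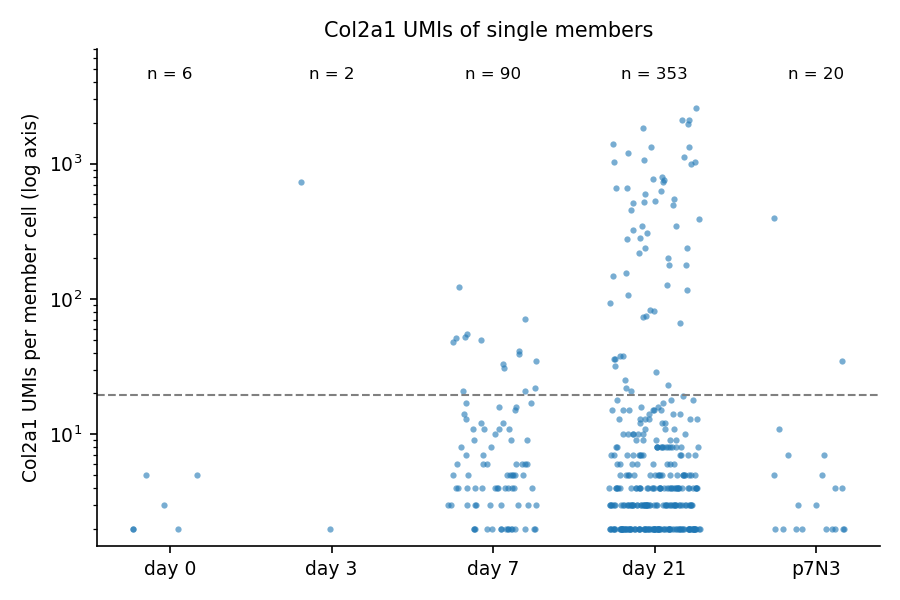
Col2a1 UMIs of each of the 471 members (y axis, log scale) by group, with points spread sideways for visibility. The dashed line divides members with fewer than 20 UMIs from the 80 with 20 or more, which reach 2566 UMIs and lie mostly at day 21.

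The values just inside and just outside the rule were as follows. The 127 members with exactly 2 Col2a1 UMIs had Acan at 476 CPM (counts per 1e+06 UMIs of the pooled cells), Tnmd at 1759 CPM and Ucma at 53.1 CPM. The 442 cells that met every other criterion with 1 Col2a1 UMI had Acan at 441, Tnmd at 1176 and Ucma at 29.3 CPM. Another 47 cells had the Col2a1 UMIs and 1 partner gene, and 41 had them with none. Of the cells with at least 2 Ptprc UMIs, 8 met all other criteria.

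Levels below are CPM of the summed cells of a library, averaged over the 6 libraries with at least 10 members (day 7 replicates 2 and 3 and the 4 of day 21), or over the 5 with Col2a1-rich members among them. They are descriptions, since the rule chose the cells. The assay tags the 3′ ends of transcripts, so CPM is not divided by gene length, and levels are compared within a gene.

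In Col2a1-rich members the cartilage collagens stood together. Col2a1 was at 2470 CPM in day 7 replicate 2 and at 5367, 36597, 33932 and 22710 CPM in the day 21 libraries. Col9a1 was at 1248 CPM, Col9a2 at 1530, Col9a3 at 2576, Col11a1 at 3764 and Col11a2, which the rule did not use, at 1176. In the other members these 5 genes were at 40.0, 46.7, 119, 1277 and 103 CPM, and in the tenocyte gate at 5.78, 7.96, 8.93, 631 and 14.3 CPM. All 5 stood in the same order of the 3 sets, which the rule itself favours for all but Col11a2.

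Of the 29 genes of a cartilage matrix list, 23 were more than 2-fold higher in Col2a1-rich than in other members (ratio of mean CPM plus 5). Another 2 were more than 2-fold lower (Cilp, at 93.5 and 195 CPM, and Epyc, at 11.6 and 31.8 CPM). Col2a1 is on the list and set this split, so its own difference was fixed in advance. The list holds 7 genes of the rule, Col2a1 among them, and the genes outside the rule were not counted apart. Over the 6281 genes found in at least 25% of members the median of this ratio was 0.90. How many of those genes passed 2-fold was not counted, so the 23 have no background share beside them. Among proteoglycans and smaller matrix proteins, Acan was at 1538 CPM in Col2a1-rich members, 627 in the others, 285 in the tenocyte gate and 51.8 in a stromal gate (Pdgfra with at least 2 of Col1a1, Col1a2, Col3a1, Dcn and Lum, outside the other gates). Hapln1, the link protein that ties aggrecan to hyaluronan, was at 475, 56.3, 8.06 and 1.46 CPM in the same 4 sets. Ucma, a secreted protein of young chondrocytes, was at 2686, 164, 15.2 and 2.22 CPM. Among matrilins, Matn3 was at 1178 CPM in Col2a1-rich and 71.4 in other members, whereas Matn4 differed little, at 628 and 582 CPM. Matn1 was found in 0.849% of members. Lect1 (chondromodulin) was at 912 CPM in Col2a1-rich and 35.9 in other members, 3110079O15Rik (Snorc, a chondrocyte membrane proteoglycan) at 1086 and 4.50, and Mia at 403 and 7.72. Comp, a matrix protein of cartilage and tendon alike, was at 4765 and 1002 CPM.

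**Figure D3:**
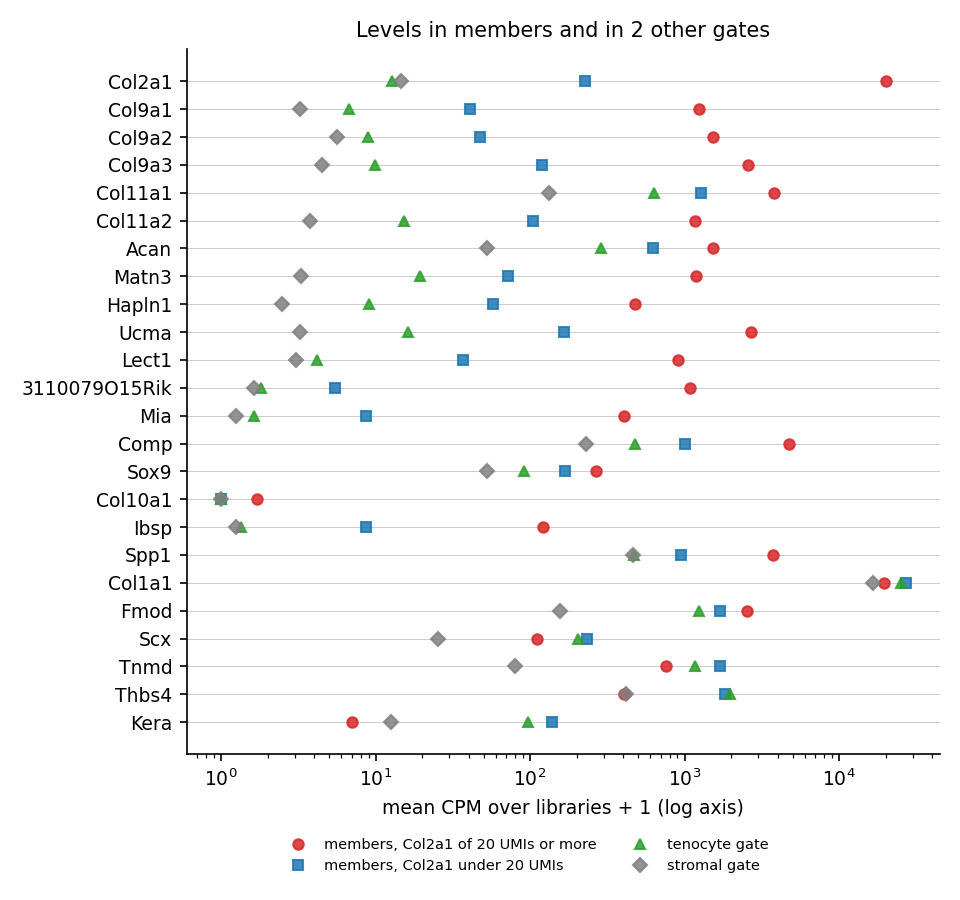
Mean CPM plus 1 (x axis, log scale) of 24 genes in Col2a1-rich members, other members, the tenocyte gate and the stromal gate; points are means over 5 or 6 libraries. Cartilage genes such as Acan, Hapln1 and Ucma run from Col2a1-rich members down to the stromal gate, while Scx, Tnmd, Thbs4 and Kera are lower in the Col2a1-rich members than in the other members and the tenocyte gate.

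Of the 29 genes of the cartilage matrix list, 7 belong to the rule. Of the 22 others, 18 were found in at least 10% of members and 12 were more than 2-fold higher in members than in the tenocyte gate, with a median ratio of 2.50. Of the 15 found in at least 25% of members, 10 were more than 2-fold higher, against 40 (0.637%) of all 6281 genes found so often. The median ratio of the 6281 was 1.00, and the 40 hold these 10 and genes of the rule. Cells and genes were both chosen on values of the members, which favours higher levels there, so these counts describe and are no test. Among genes found in at least 25% of members, the highest ratios to the stromal gate after Col2a1 were those of Ucma (70.8), Col9a3 (54.6), Col11a2 (33.4) and Matn3 (31.2). Col9a3 and Matn3 are genes of the rule, so their ratios follow in part from the choice of members. The 20 highest also held the tendon genes Tnmd (18.3), Fmod (11.2), Scx (7.34) and Kera (7.33). These genes set the tenocyte gate, which the stromal gate leaves out, so these ratios follow in part from the gates. Members and tenocyte gate had Tnmd at 1532 and 1167 CPM and Fmod at 1780 and 1244. Scx was at 209 and 202 CPM there, and Kera at 116 and 96.2.

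Tendon genes were mixed within the members. Of the 16 genes of the tendon list, 5 were more than 2-fold lower and 3 more than 2-fold higher in Col2a1-rich than in other members, Comp among the latter, and the list summed to 19472 and 15802 CPM. The median of this ratio was 0.90 over the 6281 genes found in at least 25% of members. How many of those genes passed 2-fold in either direction was not counted, so the 5 and the 3 have no background share beside them. Scx was at 110 CPM in Col2a1-rich and 233 in other members, against 202 in the tenocyte gate. Tnmd was at 755, 1691 and 1167 CPM, Thbs4, a thrombospondin of tendon, at 404, 1832 and 1955, and the keratan sulfate proteoglycan Kera at 6.06, 137 and 96.2. Fmod, a collagen-binding proteoglycan, was at 2524, 1706 and 1244 CPM. The tendon list of members below 20 UMIs thus summed close to the 14613 CPM of the tenocyte gate.

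Of the chondrogenic regulators, Sox9 was at 264 CPM in Col2a1-rich members, 167 in the others, 90.9 in the tenocyte gate and 51.4 in the stromal gate. Its partners Sox5 and Sox6 were found in 21.0% and 15.7% of members, at 38.9 and 29.8 CPM in Col2a1-rich and 10.0 and 7.77 in other members. Runx1 was found in 90.7% of members and Runx2, the regulator of hypertrophy and of bone, in 22.9%, at 18.3 CPM in Col2a1-rich and 14.3 in other members. Foxa2, Foxa3, Nkx3-2 and Barx1 were found in under 1% of members and Hoxd13 in none. The median ratio of the 20 regulators to the tenocyte gate was 1.03. Gdf5, a ligand known from joint cartilage, was at 52.4 CPM in Col2a1-rich members, 13.1 in the others and 2.72 in the tenocyte gate.

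Genes of hypertrophy, the last step before cartilage gives way to bone, were unequal. The 14 genes of the list summed to 4835 CPM in Col2a1-rich members, 1507 in the others and 690 in the tenocyte gate, most of it from Spp1 (osteopontin), and 7 were found in at least 10% of members. The Col2a1-rich sum had an SD of 3899 CPM over 5 libraries, and the Ptprc cells summed to 1633 CPM, above the members with fewer than 20 Col2a1 UMIs. Its defining genes Col10a1 or Ihh were found in 1 of 471 members (0.212%), a Col2a1-rich cell of day 7 replicate 2, and in 0 of the 353 members of day 21. Ibsp or Bglap, genes of mineralizing tissue, were found in 27 members (5.73%), in 22.5% of Col2a1-rich and 2.30% of other members, against 1.19% of the tenocyte gate, 2.39% of the stromal gate and 0.359% of Ptprc cells. Sp7, the osteoblast factor, was found in 0.637% of members. Spp1 was at 3722 CPM in Col2a1-rich and 947 in other members. Mki67 or Top2a, genes of dividing cells, was found in 43 members (9.13%), against 15.5% of the tenocyte gate, whose cells come from other days in other proportions. Over the same 6 libraries the proliferation list summed to 452 CPM in members and 388 in the tenocyte gate. Prg4, the lubricin of joint surfaces and tendon sheaths, was found in 108 (22.9%), against 37.0% of the tenocyte gate and 26.9% of the Ptprc cells.

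Col2a1 RNA was also found outside these cells. Members held between 92.9% and 98.1% of the Col2a1 UMIs of kept cells in the 4 day 21 libraries and 90.9% in day 7 replicate 2. The part was 70.6%, 66.7% and 37.5% in day 7 replicates 1, 3 and 4, and 24.0% to 86.7% in the p7N3 libraries. Ptprc cells, which should lack the gene, had Col2a1 at 0, 43.8, 24.8 and 643 CPM in day 21 replicates 1 to 4, and the last is 16.1 CPM without 1 cell of 753 Col2a1 UMIs. In the stromal gate it was at 1.41, 43.3, 18.7 and 15.1 CPM. Members with fewer than 20 UMIs were at 246, 144, 150 and 216 CPM in the same 4 libraries, a level that the rule itself sets. Whether members with 2 or 3 UMIs took them from free RNA was not tested.

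The groups with few members are given as pooled counts, with exact 95% Poisson intervals for counting error only. The 6 members of day 0 had Tnmd at 4340 CPM (3846 to 4879), Thbs4 at 5735 (5165 to 6350) and Scx at 914 (696 to 1180), but no UMI of Acan, Sox9, Hapln1 or Lect1, each of which allows up to 57.2 CPM. Tendon genes were thus high and Sox9 unseen in these 6 cells. The member of day 3 replicate 2 was unlike them: of its 14830 UMIs, 733 were Col2a1, 169 were 3110079O15Rik, 65 were Acan and 23 were Sox9, with 4 of Col1a1 and 0 of Scx and Tnmd. It is 1 cell. The 20 members of the p7N3 libraries had Col2a1 at 1408 CPM (1287 to 1538), Acan at 917 (820 to 1023), Tnmd at 1138 (1030 to 1255) and Sox9 at 193 (150 to 245), and all but 2 of the 20 had fewer than 20 Col2a1 UMIs. Of their 496 Col2a1 UMIs, 1 cell of replicate 3 held 394, and without it Col2a1 was at 294 CPM.

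Gene levels of members could be tested over libraries for day 21 against day 7 only, with 4 and 2 libraries of at least 10 members. Day 0 and p7N3 had no such library, so no genes were tested for day 7 against day 0 or day 21 against day 0, and p7N3 against day 7 was tested only with libraries of at least 5 members. The comparison asks how Col2a1 cells of the later, cartilage-forming stage differ from those of the first week. UMIs of the members were summed per library and fitted with edgeR's quasi-likelihood test, and the CPM of this comparison are scaled by its TMM factors. Of 9046 genes, 430 were higher and 326 lower at day 21 at an adjusted p under 0.05, which is 8.36% of the genes tested (4.75% higher, 3.6% lower), and the median log2 fold change of all genes was 0.02. The 2 day 7 libraries limit this: without replicate 2 the count was 398, of which 241 were among the 756, and with members of at least 5 Col2a1 UMIs, where only replicate 2 had 10 of them, it was 145. Where 1 day 7 library is left, the spread comes from day 21 and the lone library is taken to vary like those.

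Of the 10 genes with the largest rise, Cilp2 and Chad are on the cartilage matrix list and none on the tendon list. Cilp2, a cartilage intermediate layer protein, was at 4.09 and 0 CPM in the 2 day 7 libraries and at 300, 227, 275 and 369 CPM at day 21 (log2 fold change 6.42, SE 0.43, edgeR adjusted p = 0.000279). With 1 library left out its log2 fold change ranged from 6.14 to 11.97. Chad (chondroadherin), a cell-binding protein of cartilage, was at 1.64 and 0 CPM at day 7 and at 101, 105, 282 and 126 CPM at day 21 (log2 fold change 6.74, SE 0.90, edgeR adjusted p = 0.00415). From only 2 UMIs at day 7, its pooled ratio has a counting interval of 27.9 to 836. The secreted Wfdc1 rose from 3.27 and 0 to between 72.9 and 136 CPM, and Nov (Ccn3), a matricellular protein, from 4.09 and 4.23 to between 87.3 and 150 CPM. The choice of the 10 required groups without overlap, which 38.9% of all genes tested also showed. All 4 were higher in the tenocyte gate at day 21 too, where Cilp2 went from 3.08 and 4.74 to between 96.7 and 147 CPM.

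Mmp13, the collagenase of hypertrophic cartilage and of remodelling matrix, was at 3.27 and 63.4 CPM at day 7 and at 771, 845, 241 and 477 CPM at day 21 (log2 fold change 5.05, SE 0.95, edgeR adjusted p = 0.0146). It rested on few cells: it was found in 19.7% of members, and the 3 highest cells held 92.9%, 85.6%, 71.8% and 72.5% of its UMIs in the 4 day 21 libraries. With 1 library left out its log2 fold change ranged from 3.26 to 7.45. It did not pass with the highest doublet scores removed, with members of at least 5 Col2a1 UMIs or without day 7 replicate 2. Has1, a hyaluronan synthase, rose from 0.818 and 4.23 to between 49.6 and 123 CPM. Perp and Wnt9a each had 1 UMI at day 7 and 221 and 176 at day 21, so that their pooled ratios have counting intervals of 6.63 to 1480 and 5.26 to 1180. Tmem140 and Epas1 (HIF-2 alpha) had no UMI at day 7 and were at least 7.54-fold and 4.84-fold higher, against a floor of 3 UMIs over the 2 libraries. Chad, Has1, Perp, Wnt9a, Tmem140 and Epas1 did not pass without day 7 replicate 2 either, nor Wnt9a without day 7 replicate 3 or day 21 replicate 2 or 3, nor Epas1 without day 21 replicate 3, whereas Cilp2, Wfdc1 and Nov passed whichever library was left out.

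Of the 10 genes with the largest fall, S100a8 and S100a9 are on the leukocyte list and none on the proliferation list. Ptx3, a pentraxin made in inflamed tissue, fell from 395 and 634 CPM to 34.5, 93.2, 63.1 and 60.0 (log2 fold change -2.99, SE 0.31, edgeR adjusted p = 0.00183). Fabp5, a fatty acid binding protein, fell from 1080 and 1040 to between 119 and 232 CPM, and the adhesion protein Chl1 from 82.6 and 114 to between 12.8 and 20.2. Sfrp1, a secreted Wnt antagonist, fell from 365 and 1831 to between 137 and 209 CPM (log2 fold change -2.67). Without day 7 replicate 3 its log2 fold change was -1.11, and with members of at least 5 Col2a1 UMIs it did not pass (edgeR adjusted p = 0.207). St3gal5, Gcnt1, Rassf4 and 2810417H13Rik (the PCNA-associated factor Pclaf) fell too. S100a8 and S100a9, the calprotectin chains of neutrophils, fell from 41.7 and 16.9 and from 54.0 and 25.4 CPM to at most 6.77 and 6.72. In the tenocyte gate both went the same way, S100a9 from 38.0 and 45.7 to between 2.39 and 13.5 CPM. Gcnt1, Rassf4, S100a8 and S100a9 did not pass without day 7 replicate 2, nor 2810417H13Rik without day 7 replicate 3, and S100a8 did not pass in members with fewer than 20 Col2a1 UMIs (edgeR adjusted p = 0.0602).

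**Figure D4:**
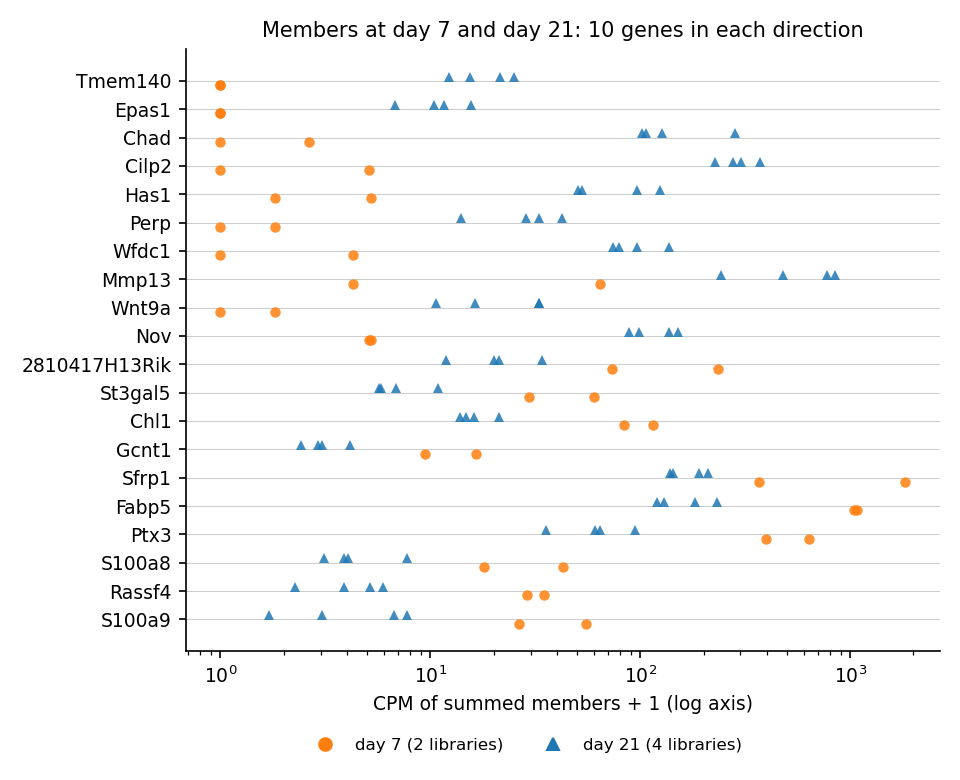
CPM plus 1 of summed members (x axis, log scale, TMM scaled) for the 10 genes with the largest rise and the 10 with the largest fall from day 7 to day 21. Each point is a library, 2 of day 7 and 4 of day 21, and genes were chosen for groups that do not overlap, as 38.9% of all genes tested did.

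Of the cartilage matrix list, 20 genes outside the rule were tested, and 7 were higher at day 21, none lower and 13 not called, beside 4.75% higher and 3.6% lower over all genes, with a median log2 fold change of 1.41. Beside Cilp2 and Chad, Cilp rose by 3.73 (SE 0.52), Mia by 2.64 (SE 0.56), Matn4 by 1.81 (SE 0.46), Chadl by 1.49 (SE 0.37) and Comp by 1.45 (SE 0.34). With 1 library left out Cilp ranged from 3.49 to 5.03 and Mia from 2.34 to 4.39. Matn4 then ranged from 1.25 to 3.35, Chadl from 1.19 to 1.62 and Comp from 1.08 to 2.08. In members with fewer than 20 Col2a1 UMIs the log2 fold changes of Mia, Comp and Chadl were -0.28, 0.84 and 0.36 and none passed (edgeR adjusted p = 0.855, 0.24 and 0.62), nor did Matn4 (1.73, edgeR adjusted p = 0.0531), and the list's median was 0.12. Mia, Comp and Chadl did not pass with the highest doublet scores removed either. The difference between the 2 fits was not tested. Hapln1 (log2 fold change 0.24), Ucma (0.85), Lect1 (0.64) and Frzb (0.50) did not pass in all members. In members with fewer than 20 Col2a1 UMIs Lect1 was lower at day 21 (log2 fold change -2.25, edgeR adjusted p = 0.0151). Of the 7 that rose, Cilp2 and Cilp passed whichever library was left out, and the other 5 each missed the threshold without at least 1 library. The genes of the rule are given as values: Col2a1 was at 848 and 211 CPM at day 7 and between 988 and 7879 CPM at day 21, and Acan at 843 and 664 against 599 to 1005 CPM.

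Of 15 genes of the tendon list tested, Tnmd, Thbs4, Kera, Comp and Dcn were higher and Tnc lower at day 21, with 9 not called and a median of 1.29. Over all genes tested, 4.75% were higher and 3.6% lower. Thbs4 went from 450 and 524 CPM to 2455, 2450, 1869 and 2208 (log2 fold change 2.21, SE 0.17, edgeR adjusted p = 0.000471). Tnmd went from 881 and 194 CPM to 2324, 1732, 1793 and 2542 (1.90, SE 0.46, edgeR adjusted p = 0.0373). Its log2 fold change ranged from 1.25 to 3.49 with 1 library left out. Tnmd missed the threshold without any 1 of the day 21 libraries, and Thbs4 and Dcn passed whichever library was left out. Scx was not called, at a log2 fold change of 0.49. Tnc, a matrix protein of injured and developing tendon, fell by 1.11 on the log2 scale (SE 0.29), and in members with fewer than 20 Col2a1 UMIs it missed the threshold (edgeR adjusted p = 0.0648). Tnc also missed it with the highest doublet scores removed, without any 1 of the day 21 libraries and without day 7 replicate 3, where its log2 fold change was -0.34. Kera missed it without day 7 replicate 2 or any 1 of the day 21 libraries. In those members the median of the list was 1.09 and Tnmd, Thbs4, Kera, Dcn and Fmod were higher. Dcn and Mgp differed by a like amount in the tenocyte gate, where the log2 ratios of mean CPM plus 5 were 0.99 and 2.21, whereas those of Tnmd and Kera were 0.32 and 0.35. Whether members and tenocyte gate changed by different amounts was not tested.

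**Figure D5:**
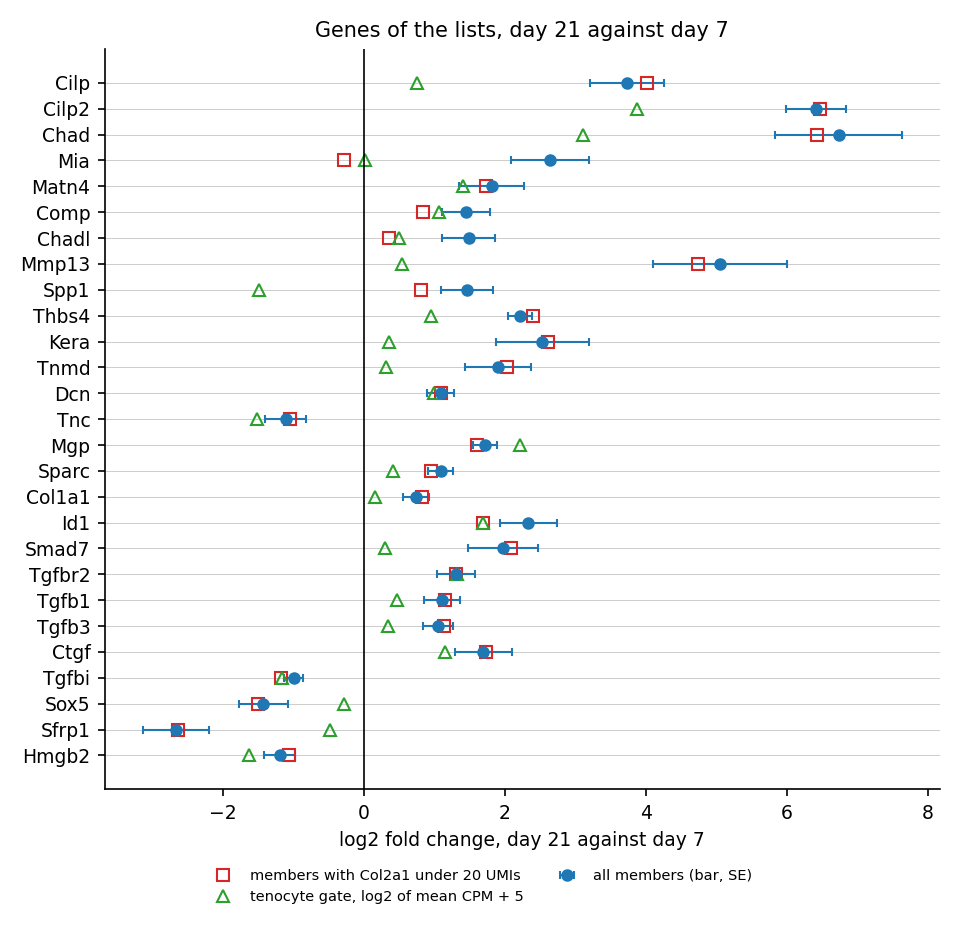
Log2 fold change of day 21 against day 7 (x axis) for 27 genes of the lists. Filled points are all members with the SE of the edgeR fit, open squares are members with fewer than 20 Col2a1 UMIs, and open triangles are the tenocyte gate (log2 ratio of mean CPM plus 5, no test); of these 27 genes, Mia turns sign without the Col2a1-rich members.

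Of 10 hypertrophy genes tested, Mmp13 and Spp1 were higher at day 21, beside 8.36% called over all genes, with a list median of 0.21, and Spp1 went from 868 and 288 CPM to between 1326 and 2122. In members with fewer than 20 Col2a1 UMIs its change was 0.81 and did not pass (edgeR adjusted p = 0.273), nor did it pass with the highest doublet scores removed (0.94, edgeR adjusted p = 0.238), without day 7 replicate 3 or without any 1 of the day 21 libraries. In the tenocyte gate Spp1 went the other way, from 787 and 858 to between 117 and 438 CPM, and whether the 2 changes differ was not tested. Runx2 was at a log2 fold change of -1.13 and Vegfa at -0.36, neither called. Of 12 genes of the osteoblast and mineralization list, Mgp, an inhibitor of calcification, Spp1, Sparc and Col1a1 were higher (median 1.28). Col1a1 ranged from 0.44 to 1.19 with 1 library left out and missed the threshold without day 7 replicate 3 or any 1 of the day 21 libraries. Mgp went from 1411 and 981 CPM to between 3791 and 4166 (1.72, SE 0.17, edgeR adjusted p = 0.00142). Ibsp and Bglap were not called and came from few cells.

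Of 11 chondrogenic transcription factors tested, Sox5 was lower (-1.43, SE 0.34, edgeR adjusted p = 0.0358) and the other 10 were not called, among them Sox9 at 240 and 186 CPM at day 7 and 158 to 177 CPM at day 21 (-0.38). The list median was -0.30, and the share called is near the 8.36% called over all genes. In members with fewer than 20 Col2a1 UMIs Sox5 did not pass (edgeR adjusted p = 0.09), nor did it by DESeq2, with another minimum of members, with at least 5 Col2a1 UMIs, with the highest doublet scores removed or without any 1 library other than day 21 replicate 4. In the same members Sox9 was lower (-0.58, edgeR adjusted p = 0.049).

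Of 17 TGF beta signalling genes tested, against 8.36% called over all genes, 6 were higher, among them Tgfb1, Tgfb3, Tgfbr2, Smad7 and Ctgf, and Ltbp1 and Tgfbi were lower, with a median of 0.88. The ligands Tgfb1 and Tgfb3 rose by 1.11 (SE 0.26) and 1.05 (SE 0.21), the receptor Tgfbr2 by 1.31 (SE 0.27), and the target Ctgf by 1.69 (SE 0.40). Tgfb1 ranged from 0.84 to 2.19 with 1 library left out. Tgfbi, a further target, fell by 1.00 (SE 0.14). With the replicate number as a replicate block Ltbp1 was not called (-0.67, edgeR adjusted p = 0.113). Tgfbi passed whichever library was left out, whereas Tgfb3, Tgfbr2, Smad7, Ctgf and Ltbp1 missed the threshold without day 7 replicate 2 (all but Tgfb3 also without at least 1 other library), and Tgfb1 without day 7 replicate 3 or any 1 of the day 21 libraries. Of 13 BMP and GDF genes, the receptor Acvr1, the antagonist Chrdl1, the target Id1 and the inhibitor Smad7 were higher and none lower (median 0.52). Acvr1, the gene mutated in the inherited form of HO, rose by 1.02 (SE 0.21, edgeR adjusted p = 0.0211), and was not called under the replicate block (0.95, edgeR adjusted p = 0.0658), by DESeq2, with libraries of at least 5 members, with at least 5 Col2a1 UMIs, or without day 7 replicate 2 or day 21 replicate 4. Chrdl1 missed the threshold without day 7 replicate 2 or 3 or day 21 replicate 2, 3 or 4. Id1 rose from 9.82 and 0 CPM to between 31.7 and 47.5, and missed it in members with fewer than 20 Col2a1 UMIs and with the highest doublet scores removed. Of 15 FGF, Wnt and Hedgehog genes only Sfrp1 was called, with the limits given above.

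Of 19 matrix remodelling genes, Mmp2, Mmp13, Mmp14, Timp2, Timp3, Htra1 and Loxl1 were higher and Serpinh1, a collagen chaperone, lower (median 0.71). Timp2, Timp3 and Htra1 passed whichever library was left out. Mmp2, Mmp13, Mmp14 and Serpinh1 missed the threshold without day 7 replicate 2, Mmp2 also without day 21 replicate 1, 2 or 3 and Mmp14 without day 7 replicate 3. Mmp14 and Serpinh1 missed it under the replicate block, and Loxl1 missed it with RLE factors and without any 1 library. Of 17 fibroblast genes, 6 were higher, among them Cd34 by 2.66 (SE 0.46) and Pi16 by 3.92 (SE 0.57). Lum, also of the 6, was not called under the replicate block (0.61, edgeR adjusted p = 0.163). With 1 library left out, Cd34 ranged from 1.56 to 3.27 and missed the threshold without day 7 replicate 2, and Pi16 ranged from 2.41 to 5.17 and passed each time. Of 12 proliferation genes, Hmgb2 was lower and none higher (median -0.55), a share near the 8.36% called over all genes. Of 13 hypoxia and glycolysis genes, Ndrg1 was higher and Eno1 lower (median -0.32). Hmgb2 and Eno1 missed the threshold without day 7 replicate 2, and Ndrg1 passed whichever library was left out. None of 10 immediate early genes, which respond to digestion of tissue, was called (median 0.02).

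Markers of other cell types moved with this comparison in part. Of 9 leukocyte genes tested, Tyrobp, Fcer1g, S100a8 and S100a9 were lower and none higher (median -1.35), beside 3.6% lower over all genes. None of these 4 passed without day 7 replicate 2, nor did Fcer1g without day 21 replicate 3 or 4. The summed CPM of the 11 listed genes in members was 533 and 419 at day 7 and 127, 676, 156 and 122 at day 21, where Cd74, the most abundant of the list, gave 443 of the 676 CPM of replicate 2. The same sum was 43464 CPM in the Ptprc cells. Hbb-bt, a haemoglobin chain, fell by 4.03 on the log2 scale (SE 0.82), and without day 7 replicate 2 its value was 1.90. None of 3 endothelial, 5 mural, 4 Schwann and 2 muscle genes was called, at medians of 2.35, 0.96, 3.03 and -0.38. The part of these markers in the other results was not tested.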

How the data were processed

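Tissue of the tenotomy site was digested and run on the 10x Genomics v2 assay. Per the paper's methods the authors aligned reads with Cell Ranger to mm10; the submitters' notes name GRCh38 for 15 libraries and mm10 for 4, and all 27998 gene identifiers are mouse. The authors deposited raw UMI counts per gene and cell label, without normalization. The study's limits on cells were used: a minimum of 500 detected genes and a maximum of 25% of UMIs from mitochondrial genes. Of 38554 kept cell labels, 975 occur in 2 or more libraries, none of them as a member in 2. No doublets were removed (Scrublet was an alternative); 30 members (6.37%) were among the highest scores, against 4.46% of all cells.

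Members and gene lists were chosen with earlier results of these data known. Shares were compared by exact two-sided permutation over libraries, adjusted by Benjamini-Hochberg. Summed members of libraries with at least 10 were fitted with edgeR 4.0.16 in R 4.3.3 (quasi-likelihood, TMM, filterByExpr), and 221945 to 4101644 UMIs per library went in. DESeq2 1.42.0 was an alternative. Of simulated 4-fold changes in 200 of 9046 genes for day 21 against day 7, the fit recovered 85.5%, and 5% of calls were false. Genes were named from the lists if found in 10% of members, as the 10 largest changes per direction (adjusted p under 0.05, no overlap, 10 CPM), or among the 20 highest ratios to the stromal gate; the 8 genes of the rule got no test. Libraries of a group are replicates by their labels and nothing states a shared animal, so p-values measure the spread between libraries. Same-numbered libraries correlated at -0.0269 (replicate 2) and -0.00471 (replicate 3) in their deviations from the group means. With 2 libraries at day 7 these deviations are exact opposites. These values therefore cannot tell whether replicate numbers pair the 2 groups. The 4 libraries numbered 4 carry another label text and build note than the other 15; the closing section gives results without them.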

Additional observations from a re-analysis of the deposited data

Results flagged for a closer look

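The share of members in day 7 replicate 2, 1.93% of kept cells (69 of 3578), lay far from the other 3 libraries of day 7, which were between 0.123% and 0.300%. The gap took 0.902 of the group's range. All 15 Col2a1-rich members of day 7 came from this library. Its tenocyte gate held 17.3% of kept cells, the highest of the 4, and its haemoglobin and keratinocyte list summed to 4170 CPM in members against 189 CPM in day 7 replicate 3. The part of either in the share was not tested.

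Chad stood at 282 CPM in the members of day 21 replicate 3, against 101 to 126 CPM in the other 3 libraries of day 21, a gap of 0.858 of the range. In the tenocyte gate of that library Chad was at 19.8 CPM, the lowest of the 4. Of 72 groups of 4 libraries looked at, these 2 stood out so, and chance gives about 1 in 20. Some genes on 2 lists were counted again, so fewer than 72 groups are distinct.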

How the results depend on the processing

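The differences of shares kept their direction in 99 of 102 recomputations, of which 17 could reach no p under 0.05 with any values. With Col2a1 of at least 1 UMI the differences were 1.07 (day 7 against day 0), 11.3 (day 21 against day 0) and 10.2 points (day 21 against day 7), and with at least 3 partner genes 0.559, 4.47 and 3.91 points; all 6 passed, at an adjusted exact permutation p of 0.0476. Day 3 against day 0 turned to 0.0156 points with at least 3 partner genes and, chosen after seeing the data, with Col2a1 of at least 20 UMIs. Day 7 against day 0 turned to -6.51 points as a share of members plus tenocyte gate, also chosen after seeing the data. The cause was not tested. Without the libraries numbered 4, day 21 was above day 7 by 4.80 points (exact permutation p = 0.1, the smallest that 3 against 3 allow). Depth and the 6 and 2 members of day 0 and day 3 allowed no gene test there.

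The 756 genes of day 21 against day 7 were 1150 without a filter on low counts, 426 with replicates 1 to 3 only, 145 (113 shared) with at least 5 Col2a1 UMIs and 398 to 522 when 1 library was left out. The first tested 16382 genes in place of 9046, and the others had fewer libraries or cells. A minimum of 20 members gave 522, since it leaves out day 7 replicate 3; a lone day 7 library is assumed to vary like those of day 21. DESeq2 called 521 (466 shared). A fit of the 2 groups alone gave the same 756, since no other group had 10 members. Genes of day 7 and day 21 against day 0 were not tested. With libraries of at least 5 members, p7N3 against day 7 gave 0 of 9386 genes by edgeR, 709 at an unadjusted p under 0.05 and 1 by DESeq2. Of 63 genes named with a call, 8 passed in every setting (Cilp, Cilp2, Ndrg1, Nov, Ptx3, Sparc, Timp3 and Wfdc1); without day 7 replicate 2, 30 passed. Mia turned to -0.28 in members with fewer than 20 Col2a1 UMIs. Hbb-bt ranged from -4.82 to 1.90 when 1 library was left out.

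With the replicate number as a replicate block, 771 genes were called (493 shared with the 756), and the share differences were 6.30 (day 21 against day 0), 5.85 (day 21 against day 7), 0.455 (day 7 against day 0), -0.466 (p7N3 against day 7) and -0.214 points (day 3 against day 0), with no p under 0.125 by exact sign-flip permutation.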

Other observations

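The 8 cells with at least 2 Ptprc UMIs that met all other criteria were 3 in day 7 replicate 2, 1 in day 7 replicate 4, 3 in day 21 replicate 2 and 1 in day 21 replicate 4, the last with 753 Col2a1 UMIs. Of the 80 Col2a1-rich members, 17 were among the highest Scrublet scores. Prg4 was at 512 CPM in the Col2a1-rich members of day 21 replicate 4 and at 10.7 to 47.0 CPM in those of the other 4 libraries.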
